A study of Mus musculus with 12 samples.

Results

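Ubiquitin-conjugating enzymes, the E2 enzymes of the ubiquitin system, were compared between dopaminergic neurons of 2 midbrain regions of C57BL/6 mice, the ventral tegmental area (VTA) and the pars compacta of the substantia nigra (SNpc). The members were all genes of the deposited count table whose name starts with Ube2, 35 of 23079 genes. RNA came from TRAP samples, a name usually given to affinity purification of translating ribosomes, by which tagged ribosomes of a chosen cell type are pulled down with the RNA bound to them. Both groups were of the same strain with no treatment named. The sources used here do not give the tag's gene, its promoter, the age of the animals or how many were pooled for a library. Because columns SN4 and SN5 held identical counts, as did VT2 and VT3, each pair was counted as 1 library, which left 5 libraries per region. The labels do not tie libraries to separate animals. The p-values therefore reflect only how these libraries vary, and that variation may be technical.

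An E2 enzyme takes activated ubiquitin from an E1 enzyme onto a cysteine and, together with an E3 ligase, passes it to a target protein. The E2 largely sets which kind of ubiquitin chain is built, and so whether the target goes to the proteasome, is recruited into signalling or repair, or is sorted in the cell. A few enzymes of the same fold carry ubiquitin-like proteins instead, among them NEDD8 and ISG15. Dopaminergic neurons of the SNpc are those lost first in Parkinson disease, in which ubiquitin-rich inclusions are found, and the E3 ligase parkin, which works with several of these E2 enzymes, is mutated in a familial form.

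More of the E2 genes were higher in SNpc than in VTA, by small amounts. Of the 35 members, 33 passed the filter on low counts and were tested. Among them 17 were higher in SNpc and 1, Ube2w, was higher in VTA (quasi-likelihood test of edgeR, with p adjusted by Benjamini-Hochberg over all 15685 tested genes and a threshold of 0.05). That is 51.5% and 3.03% of the tested members, where 17.8% of all tested genes were called higher in SNpc and 20.4% higher in VTA. The median log2 fold change (SNpc minus VTA) was 0.25 over the tested members and -0.04 over all tested genes. The folds of the 17 ran from 1.17 in Ube2k to 1.62 in Ube2a, and 0 were at least 2-fold. Against a minimum change of 1.5-fold, edgeR called 0 members in either direction, and 0 passed at an unadjusted p under 0.05. Of all tested genes, that test called only 0.599% higher in SNpc and 7.31% higher in VTA. The CPM values of the regions did not overlap in 12 of the 33 tested members, all of them among the 17. Of all tested genes 26.6% had separate groups, 12% with SNpc higher. In number, 1884 genes were separate with SNpc higher, beside 2793 called higher in SNpc.

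**Figure D1:**
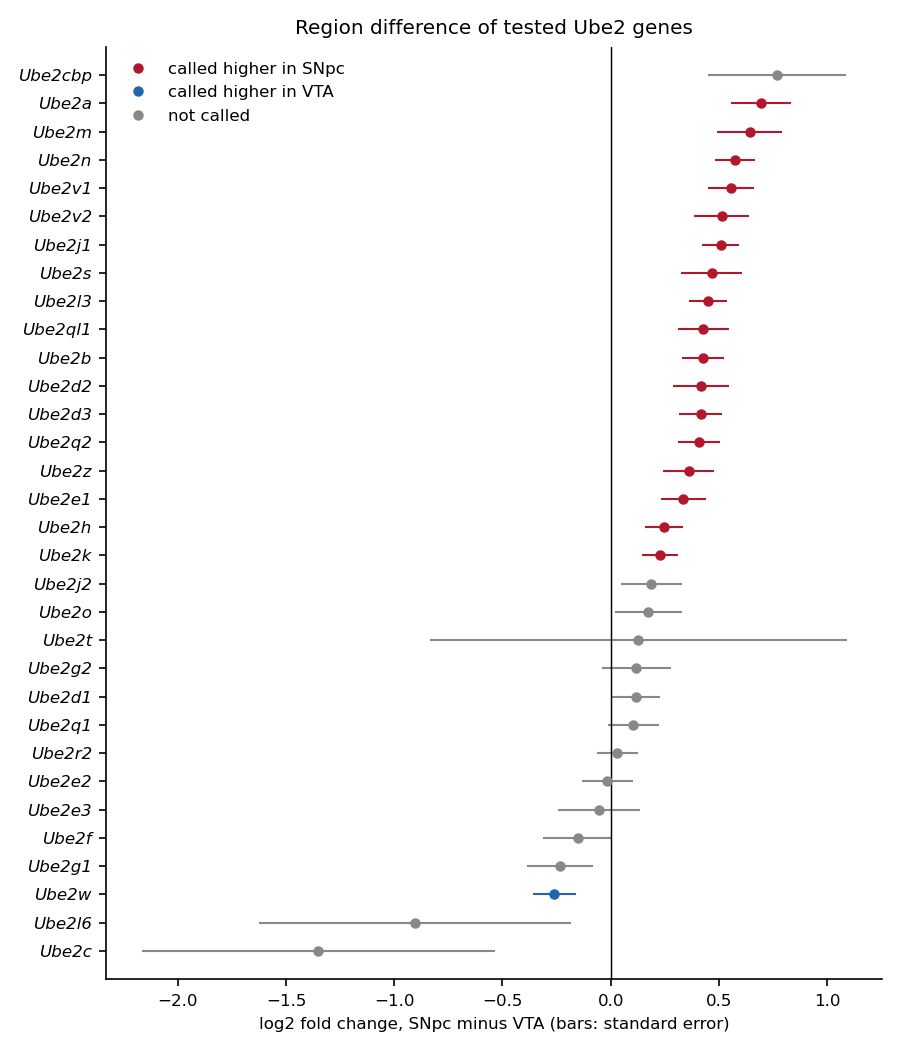
Log2 fold change (SNpc minus VTA) of 32 of the 33 tested Ube2 genes, with bars for the standard error of the edgeR fit, ordered by size. Red points mark the 17 genes called higher in SNpc, the blue point marks Ube2w, called higher in VTA, and grey points were not called, among them Ube2c, Ube2l6 and Ube2t with the widest bars.

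The libraries differed in ways that touch these counts. Total counts ran from 62356964 to 81393907. The 4 markers of dopaminergic neurons (Th, Slc6a3, Slc18a2 and Ddc) were called higher in SNpc, with summed levels of 9132 to 13329 CPM in SNpc against 4583 to 7582 in VTA. Of 29 tested markers of glia and vessels, 6 were higher in VTA (Slc1a3, Slc1a2, Pdgfra, Gpr17, P2ry12 and Pdgfrb) and 0 in SNpc by edgeR, with 9 and 0 at an unadjusted p under 0.05 and 7 and 0 by DESeq2. That VTA count is close to the 20.4% of all tested genes. Summed astrocyte markers were 253 to 418 CPM in SNpc and 427 to 579 in VTA, and summed oligodendrocyte markers 261 to 1280 and 654 to 817. Of the glutamate neuron markers, Slc17a6 was higher in VTA, and the pair summed to 18.6 to 87.4 CPM in SNpc and 91.3 to 130 in VTA; the part of these neurons in the results was not tested. With the mean of these 29 markers as a covariate, 8 of the 33 tested E2 genes were called higher in SNpc, all of them among the 17 called without it. Of all tested genes, 8.98% were called higher in SNpc with the covariate and 17.8% without it. Ube2w was no longer called. The members' median log2 fold change was 0.246 without the covariate and 0.255 with it. Among the SNpc calls lost, Ube2h and Ube2k had no smaller change but a wider standard error, and the others had a smaller change. In such bulk RNA, fewer cells of a type and less RNA per cell cannot be told apart.

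The most abundant E2 genes were judged by CPM per kilobase of exon, the union of exons in GENCODE M21. Averaged over both regions, Ube2v1 led with 147 CPM per kb, before Ube2b with 98.7, Ube2d1 with 81.3, Ube2j1 with 73.9 and Ube2n with 61.5. Ube2l3, whose exon union is 5599 bases and longest transcript 3015 bases, passed Ube2j1 and Ube2n (80.1 CPM per kb) when the longest transcript was used. At the other end of the tested members stood Ube2l6 with 1.06, Ube2t with 0.389 and Ube2c with 0.159 CPM per kb. Ube2dnl had 0 counts in all 10 libraries, which allows up to 0.00448 CPM over their summed total, counting error only.

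Ube2n and Ube2v1 work as a pair. Ube2n is the catalytic enzyme for the ubiquitin chains of signalling, DNA repair and endocytosis, and Ube2v1 and Ube2v2 are its partners, which have the E2 fold but lack the catalytic cysteine. All 3 were higher in SNpc. Ube2n (Entrez 93765, mm10 chromosome 10, 95515145 to 95545657) stood at 318, 279, 267, 289 and 269 CPM in SNpc libraries 1, 2, 3, 4 and 6 and 178, 174, 227, 178 and 198 CPM in VTA libraries 1, 2, 4, 5 and 6. All SNpc libraries lay above all VTA libraries. The means were 284 ± 20.4 CPM (SD, n = 5) in SNpc against 191 ± 22.1 CPM (SD, n = 5) in VTA, a log2 fold change of 0.57 ± 0.09 (standard error, adjusted p = 0.000163 by edgeR), the smallest p of any member.

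Ube2v1 (Entrez 66589, chromosome 2, 167607638 to 167632095) had 402, 385, 388, 376 and 338 CPM in SNpc libraries 1, 2, 3, 4 and 6 and 225, 203, 276, 284 and 294 CPM in VTA libraries 1, 2, 4, 5 and 6. The groups did not overlap, and VTA libraries 1 and 2 were the lowest. Its log2 fold change was 0.56 ± 0.11 (standard error, adjusted p = 0.000561 by edgeR). Of the 100-base words of its longest transcript, the read length, 81.1% also occur in Gm20431, a transcript that spans Ube2v1 and its neighbour, so its count is uncertain. The neighbour Tmem189 itself was at 26.4 ± 3.63 CPM in SNpc against 29.6 ± 3.66 in VTA (SD, n = 5 each) and was not called (log2 fold change -0.16). Ube2v2 (Entrez 70620, chromosome 16, 15552077 to 15595773) had 166, 141, 123, 104 and 136 CPM in SNpc libraries 1, 2, 3, 4 and 6 and 101, 85.9, 104, 103 and 75.2 CPM in VTA libraries 1, 2, 4, 5 and 6. SNpc library 4 lay just below VTA library 4, the highest of its group, and the change was 0.51 ± 0.13 (standard error, adjusted p = 0.00424 by edgeR).

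The E2 enzyme with the next smallest p acts at the endoplasmic reticulum. Ube2j1 sits in its membrane and helps mark misfolded proteins there for disposal. It (Entrez 56228, chromosome 4, 33031416 to 33052363) had 317, 296, 299, 289 and 333 CPM in SNpc libraries 1, 2, 3, 4 and 6 and 215, 187, 216, 231 and 228 CPM in VTA libraries 1, 2, 4, 5 and 6. The lowest SNpc library was well above the highest VTA library. Its log2 fold change was 0.51 ± 0.09 (standard error, adjusted p = 0.000205 by edgeR), from 307 ± 18.0 CPM (SD, n = 5) in SNpc against 215 ± 17.4 CPM (SD, n = 5) in VTA. Its paralog Ube2j2, of the same membrane, averaged 8.02 CPM per kb of exon against 73.9 for Ube2j1. It held 30.8 ± 3.67 CPM in SNpc against 27.0 ± 3.78 in VTA (SD, n = 5 each) and was not called (log2 fold change 0.19 ± 0.14 SE, edgeR adjusted p = 0.308). Ube2g2, which works on the same substrates from the cytosol, was not called either (0.12 ± 0.16 SE, edgeR adjusted p = 0.595).

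Because Ube2n, Ube2j1 and Ube2v1 had the 3 smallest p of all members, their start regions are shown, from RefSeq (GRCm38.p6, 250 bases before to 50 after the start, on the strand of the gene). Capitals mark matches, on either strand, to the GC box GGGCGG or the ETS motif CCGGAAG. The windows are chr10:95514912-95515211 on the plus strand, chr4:33031130-33031429 on the plus strand and chr2:167631956-167632255 on the minus strand.
Ube2n: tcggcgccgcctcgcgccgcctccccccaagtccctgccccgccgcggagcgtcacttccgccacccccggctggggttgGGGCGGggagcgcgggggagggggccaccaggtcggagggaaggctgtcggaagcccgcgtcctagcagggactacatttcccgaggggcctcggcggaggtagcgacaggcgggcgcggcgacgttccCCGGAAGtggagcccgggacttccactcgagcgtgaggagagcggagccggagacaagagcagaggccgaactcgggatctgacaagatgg
Ube2j1: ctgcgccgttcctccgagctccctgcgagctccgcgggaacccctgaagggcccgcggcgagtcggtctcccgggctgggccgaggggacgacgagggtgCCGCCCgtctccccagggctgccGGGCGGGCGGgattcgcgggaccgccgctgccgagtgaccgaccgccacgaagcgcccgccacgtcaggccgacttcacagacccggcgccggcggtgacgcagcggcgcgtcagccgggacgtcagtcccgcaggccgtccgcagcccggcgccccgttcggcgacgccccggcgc
Ube2v1: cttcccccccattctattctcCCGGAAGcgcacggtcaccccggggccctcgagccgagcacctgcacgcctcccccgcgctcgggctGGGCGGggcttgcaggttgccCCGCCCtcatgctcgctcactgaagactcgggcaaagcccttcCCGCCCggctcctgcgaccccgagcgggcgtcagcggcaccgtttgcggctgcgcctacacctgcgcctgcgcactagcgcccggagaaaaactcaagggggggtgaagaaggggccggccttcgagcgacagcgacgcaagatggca

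All 3 windows hold a GC box and lack the CCAAT box and TATAAA. Of the 33 tested members, 26 had an entry, with 37 windows. A GC box was found in 29 of these, or 78.4%, against 58.9% of 15639 windows of tested genes and 35.7% of all 32851 windows. The ETS motif was in 8, or 21.6%, against 15% and 8.86%. CCAAT was in 6, or 16.2%, against 37.5% and 37.4%, and TATAAA in 3, or 8.11%, against 7.76% and 13.6%. The cyclic AMP element TGACGTCA was in the windows of Ube2b and Ube2h (5.41%, against 2.85% and 1.79%). Windows of the same gene can overlap, and a match is a description of the letters only.

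Ube2l3 hands ubiquitin to ligases that take it onto their own cysteine, among them parkin and the HECT ligases. It (Entrez 22195, chromosome 16, 17152013 to 17202649) had 291, 299, 275, 267 and 262 CPM in SNpc libraries 1, 2, 3, 4 and 6 and 212, 172, 217, 204 and 216 CPM in VTA libraries 1, 2, 4, 5 and 6. The groups did not overlap, with VTA library 2 the lowest, and the log2 fold change was 0.45 ± 0.09 (standard error, adjusted p = 0.000784 by edgeR). This count cannot be told apart from that of Ydjc on the opposite strand, whose exons overlap those of Ube2l3 by 1670 bases in the annotation. Ydjc held 1.02 to 1.05 times the count of Ube2l3 in each library, and its log2 fold change was 0.45 as well (edgeR adjusted p = 6.93e-04).

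The RAD6-type enzymes Ube2a and Ube2b, near-identical proteins that modify histones and the DNA clamp, were both higher in SNpc. Ube2a (Entrez 22209, chromosome X, 36873900 to 36884222) had 67.2, 57.4, 54.5, 60.6 and 52.6 CPM in SNpc libraries 1, 2, 3, 4 and 6 and 37.1, 25.02, 38.2, 38.2 and 42.3 CPM in VTA libraries 1, 2, 4, 5 and 6. Every SNpc library was above every VTA library, and the change was the largest of the called members, 0.69 ± 0.14 (standard error, adjusted p = 0.000793 by edgeR). Ube2b (Entrez 22210, chromosome 11, 51985497 to 52000762) had 220, 235, 209, 200 and 199 CPM in SNpc libraries 1, 2, 3, 4 and 6 and 157, 128, 162, 172 and 172 CPM in VTA libraries 1, 2, 4, 5 and 6. Its groups were apart too, at a log2 fold change of 0.43 ± 0.10 (standard error, adjusted p = 0.00253 by edgeR). Both have short exon unions of 1790 and 1878 bases, and both calls ended when a trend with transcript length and GC content was removed (log2 fold changes of 0.31 and 0.06, edgeR adjusted p = 0.0626 and 0.654). Ube2h, another enzyme that modifies histones, changed by 0.25 ± 0.09 (SE, edgeR adjusted p = 0.0328). Leaving out SNpc library 1, 2 or 6 or VTA library 2 or 6 ended that call. Of the 100-base words of Ube2h, 32.5% also occur in Gm26526, so its count is uncertain.

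**Figure D2:**
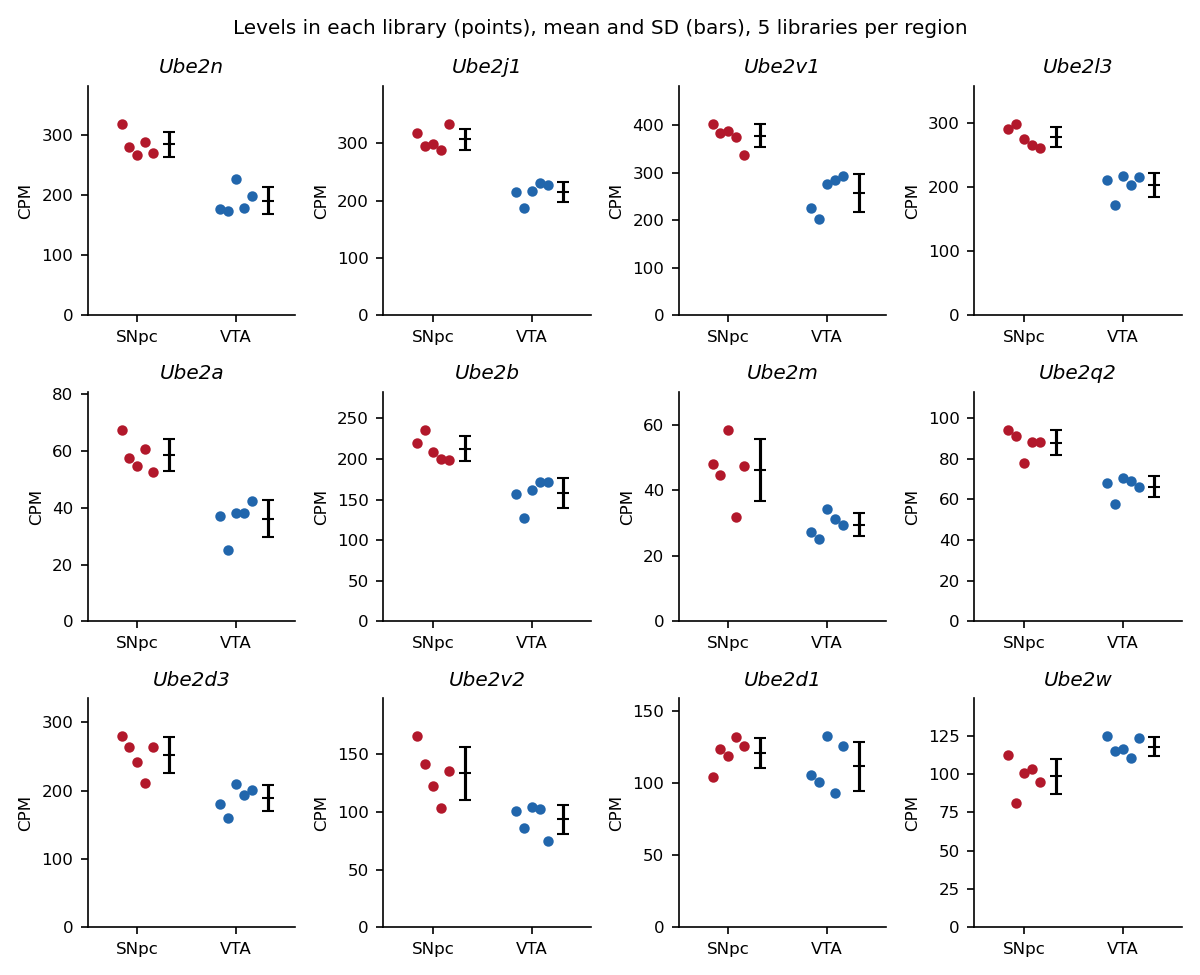
CPM of 12 Ube2 genes in each of 5 SNpc libraries (red points) and 5 VTA libraries (blue points), with the mean and SD beside them and axes starting at 0. The points of the regions are apart for Ube2n, Ube2j1, Ube2v1, Ube2l3, Ube2a, Ube2b, Ube2q2 and Ube2d3, and overlap for Ube2m, Ube2v2, Ube2d1 and Ube2w.

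The UBE2D enzymes place the first ubiquitin with many ligases. Ube2d3 (Entrez 66105, chromosome 3, 135438149 to 135468198) had 280, 264, 242, 211 and 264 CPM in SNpc libraries 1, 2, 3, 4 and 6 and 181, 160, 210, 194 and 201 CPM in VTA libraries 1, 2, 4, 5 and 6. The lowest SNpc value, library 4, was just above the highest VTA value, and the change was 0.42 ± 0.10 (standard error, adjusted p = 0.00345 by edgeR). Ube2d2, listed in RefSeq as Ube2d2a, was 159 ± 27.2 CPM (SD, n = 5) in SNpc against 119 ± 17.4 CPM (SD, n = 5) in VTA, a change of 0.42 ± 0.13 (standard error, adjusted p = 0.0165 by edgeR), a call lost without SNpc library 2. Ube2d1 (Entrez 216080, chromosome 10, 71254980 to 71285262) had 105, 124, 119, 132 and 126 CPM in SNpc libraries 1, 2, 3, 4 and 6 and 106, 101, 133, 93.4 and 126 CPM in VTA libraries 1, 2, 4, 5 and 6. These ranges largely overlap, and the log2 fold change of 0.12 ± 0.11 (standard error, adjusted p = 0.434 by edgeR) was not called. Of the 100-base words of Ube2d2, 14.5% also occur in Gm9762.

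Of the longer-tailed UBE2E enzymes, Ube2e1 was higher in SNpc, 93.8 ± 8.95 CPM (SD, n = 5) in SNpc against 74.3 ± 8.13 CPM (SD, n = 5) in VTA, by 0.34 ± 0.11 (standard error, adjusted p = 0.0181 by edgeR). The call was lost without SNpc library 1, and 47.4% of its 100-base words lie in Nkiras1 on the opposite strand, which was itself higher in SNpc by 0.39 (edgeR adjusted p = 0.00907). Ube2e2 and Ube2e3 differed by -0.02 ± 0.12 and -0.05 ± 0.19 (SE, edgeR adjusted p = 0.927 and 0.851). SNpc library 4 held 49.5 CPM of Ube2e3, the highest of the 10 libraries.

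Ube2w, which adds ubiquitin to the start of a protein chain, was the only tested member called higher in VTA by edgeR. It (Entrez 66799, chromosome 1, 16540790 to 16619489) had 112, 81.2, 101, 103 and 95.0 CPM in SNpc libraries 1, 2, 3, 4 and 6 and 125, 115, 116, 110 and 123 CPM in VTA libraries 1, 2, 4, 5 and 6. SNpc library 1 lay above VTA library 5, so the groups overlapped. The log2 fold change was -0.26 ± 0.10 (standard error, adjusted p = 0.0457 by edgeR), close to the threshold. Its call remained without SNpc library 1 and was lost without any one of the other 9 libraries and with DESeq2 (adjusted p = 0.0614), while removal of the length and GC trend gave -0.39 (edgeR adjusted p = 0.00428).

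Ube2k, Ube2r2 and Ube2g1 build chains that send proteins to the proteasome. Ube2k rose in SNpc by 0.23 ± 0.08 (SE, edgeR adjusted p = 0.0387), and leaving out SNpc library 1, 3 or 6 or VTA library 1, 2, 5 or 6 ended that call. Ube2r2, a cullin partner, was 122 ± 8.23 CPM in SNpc against 120 ± 12.1 in VTA (SD, n = 5 each), with a difference of 0.03 ± 0.10 (SE, edgeR adjusted p = 0.830). Its close relative Cdc34, which the name rule leaves out, was likewise not called at 0.14 ± 0.11 (SE, edgeR adjusted p = 0.358). Ube2g1 differed by -0.23 ± 0.15 (SE, edgeR adjusted p = 0.247), with SNpc at 47.4 to 73.7 CPM and VTA at 47.7 to 84.0.

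Some members serve ubiquitin-like proteins. Ube2m, which attaches NEDD8 to most cullins (Entrez 22192, chromosome 7, 13035120 to 13038275), had 48.1, 44.5, 58.3, 31.9 and 47.4 CPM in SNpc libraries 1, 2, 3, 4 and 6 and 27.4, 25.3, 34.4, 31.1 and 29.4 CPM in VTA libraries 1, 2, 4, 5 and 6. SNpc library 4 fell among the VTA values and the other SNpc libraries were higher, for a log2 fold change of 0.64 ± 0.15 (standard error, adjusted p = 0.0029 by edgeR). Ube2f, the other NEDD8 enzyme, was lower per kb of exon in both regions (3.32 and 3.68 CPM per kb, against 28.9 and 18.5 for Ube2m) and not called, with -0.15 ± 0.16 (SE, edgeR adjusted p = 0.484). The ISG15 enzyme Ube2l6 was rare, at 0.313 to 2.09 CPM in SNpc and 0.467 to 5.73 in VTA, and was not called. Ube2z, which receives ubiquitin from the E1 enzyme Uba6, rose in SNpc by 0.36 ± 0.12 (SE, edgeR adjusted p = 0.0215), a call lost without SNpc library 1 or 2 or VTA library 2.

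Among the less studied enzymes, Ube2q2 (Entrez 109161, chromosome 9, 55148854 to 55207529) had 94.1, 91.3, 77.8, 88.2 and 88.4 CPM in SNpc libraries 1, 2, 3, 4 and 6 and 68.2, 57.8, 70.5, 69.0 and 66.3 CPM in VTA libraries 1, 2, 4, 5 and 6. Its groups were apart and the log2 fold change was 0.41 ± 0.10 (standard error, adjusted p = 0.00334 by edgeR). Of its 100-base words, 13.6% also occur in Gm4895. Ube2ql1 was 76.9 ± 12.3 CPM (SD, n = 5) in SNpc against 57.1 ± 3.51 CPM (SD, n = 5) in VTA, a change of 0.43 ± 0.12 (standard error, adjusted p = 0.00798 by edgeR), also without overlap. Ube2q1 and the large hybrid enzyme Ube2o were not called, at 0.10 ± 0.12 and 0.17 ± 0.16 (SE, edgeR adjusted p = 0.521 and 0.408). Ube2cbp, whose product binds an E2 and is not itself one, had the largest log2 fold change toward SNpc, 0.77 ± 0.32 (SE), at 5.63 ± 1.44 CPM against 3.31 ± 1.15 (SD, n = 5 each). It was not called (edgeR adjusted p = 0.0663), while DESeq2 gave an adjusted p of 0.0329. Over all its alternatives the adjusted p ran from 0.0253 to 0.530.

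E2 enzymes of dividing cells were near the floor, with the exception of Ube2s. Ube2c, which starts chains for the anaphase-promoting complex, was 0.141 to 0.350 CPM in SNpc and 0.139 to 1.13 in VTA, and Ube2t, an enzyme of DNA crosslink repair, was 0.0159 to 1.24 and 0.115 to 1.04. Neither was called. Tnnc2 on the opposite strand overlaps 592 exonic bases of Ube2c. Ube2s, which lengthens those chains, was 59.0 ± 10.8 CPM in SNpc against 42.7 ± 5.91 in VTA (SD, n = 5 each), a change of 0.47 ± 0.14 (SE, edgeR adjusted p = 0.0139) with overlapping groups. Of the proliferation markers Mki67, Top2a, Ccnb1 and Cdk1 only 1 passed the filter, and they summed to 0.129 to 2.46 CPM in SNpc and 0.401 to 1.73 in VTA. Ube2u did not pass the filter. It had 1, 0, 0, 0 and 1 reads in SNpc libraries 1, 2, 3, 4 and 6 and 23, 3, 0, 21 and 38 in VTA libraries 1, 2, 4, 5 and 6, and without the filter it was called higher in VTA (edgeR adjusted p = 0.0396), as were 16.5% of the genes tested then.

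The proportion of 2 genes to each other was tested on 13 pairs, chosen as close relatives or as matched by function. The test used the log2 ratio of the 2 genes within each library, taken on CPM with 2 added. After Benjamini-Hochberg adjustment over the 13 pairs 0 differed between the regions, while 4 had an unadjusted p under 0.05 (two-sided exact permutation tests). The smallest p that 5 against 5 libraries can give, 0.00794, was reached by Ube2j1/Ube2j2 and came to 0.103 after adjustment. A pair could therefore not pass on its own even with fully separate groups, and the count of 0 says little about whether the ratios differ. That log2 ratio was 3.24 ± 0.24 in SNpc against 2.91 ± 0.08 in VTA (SD, n = 5 each), with separate groups. For Ube2a/Ube2b it was -1.83 ± 0.14 against -2.08 ± 0.11 (exact permutation p = 0.0159, adjusted p = 0.103, n = 5 each). The ratios Ube2m/Ube2f and Ube2l3/Ube2l6 were higher in SNpc by 0.73 and 0.76 (exact permutation p = 0.0317 and 0.0397, adjusted p = 0.129 for both, n = 5 each). The Ube2l3/Ube2l6 ratio is uncertain. Ube2l6 lay near or below the added 2 CPM in most libraries, with 5.73 CPM in VTA library 4, and the Ube2l3 count cannot be told apart from that of Ydjc. The Ube2d1/Ube2d3 ratio differed by -0.29 (exact permutation p = 0.0873, adjusted p = 0.189, n = 5 each). The Ube2d2/Ube2d3 ratio differed by -0.01 and the Ube2v1/Ube2v2 ratio by 0.07 between the regions (exact permutation adjusted p = 0.952 and 0.834, n = 5 each).

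Transcript length moved with the region in these libraries. Measured from each gene's mean, log2 CPM fell by length in every SNpc library (slopes of -0.161 to -0.0488 per doubling of exon length) and rose in every VTA library (0.0652 to 0.204). Spearman's rho of exon length and log2 fold change was -0.373 across 14797 tested genes and -0.0974 across the 33 tested E2 genes, which share the same libraries. The exon unions of the 17 genes called higher in SNpc had a median of 3530 bases, against 3367 bases over all tested genes with a length. After a trend with length and GC content had been removed from each library, 13 members were called higher in SNpc (15.4% of all genes tested then) and 3 in VTA (16.8%). Of the 17 genes, 12 were still called, also when the library scale was refitted. The 5 calls that ended were those of Ube2a, Ube2b, Ube2d2, Ube2e1 and Ube2s, with exon unions of 1238 to 2480 bases. Ube2m and Ube2v1, with exon unions of 1592 and 2160 bases in that same range, were still called. Ube2o was newly called higher in SNpc (0.47, edgeR adjusted p = 0.0175), and Ube2d1 and Ube2e2 higher in VTA (-0.30 and -0.32, edgeR adjusted p = 0.0380 and 0.0426).

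**Figure D3:**
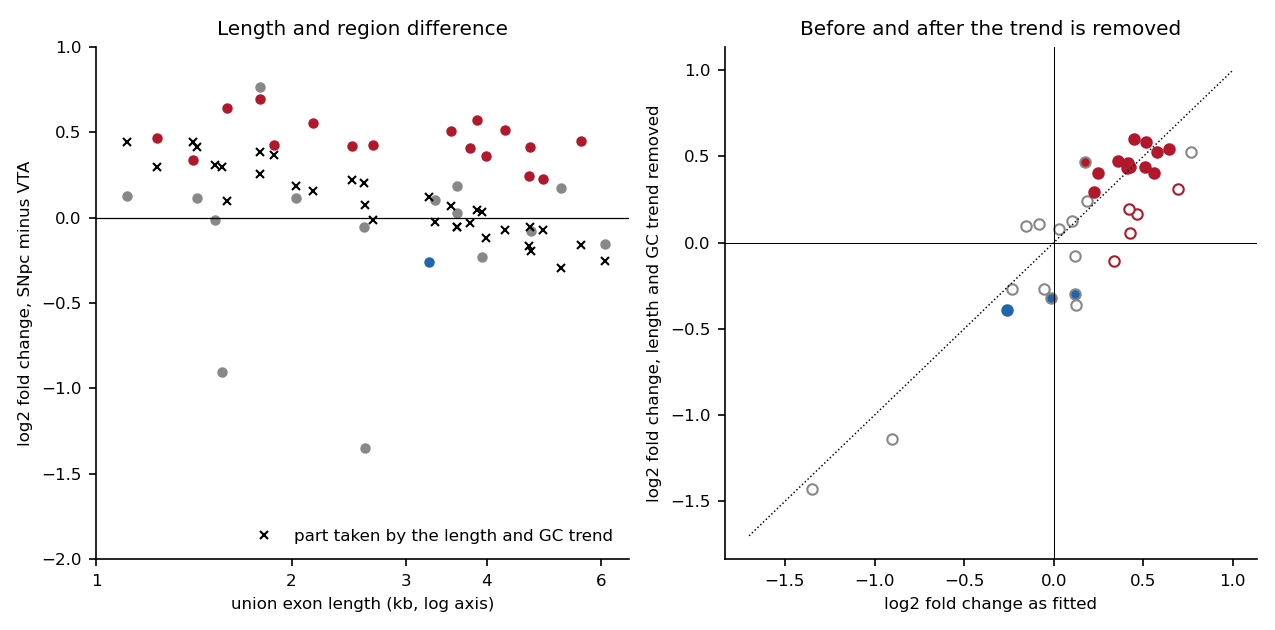
Left, log2 fold change (SNpc minus VTA) of the 33 tested Ube2 genes against union exon length on a log axis, coloured red for called higher in SNpc, blue for VTA and grey for not called, with crosses for the part that a length and GC trend takes. Right, the log2 fold changes before and after that trend was removed, with outlines coloured by the call before, filled points called after and open points not called, and a dotted line of equality; Ube2e1 is the red outline below 0.

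With the marker covariate and with the length and GC trend removed, each run on its own, 6 genes were called higher in SNpc every time, namely Ube2j1, Ube2l3, Ube2n, Ube2q2, Ube2ql1 and Ube2v1. The same 6 remained called in each alternative run for the members except the test against a minimum change of 1.5-fold. No run changed the overlap of Ube2l3 with Ydjc or of Ube2v1 with Gm20431, so the counts of Ube2l3 and Ube2v1 remain uncertain. The share of all tested genes that stayed called through these runs is not given here.

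The E2 genes were set beside the other steps of the pathway. Of 14 genes for ubiquitin and ubiquitin-like proteins, 12 were higher in SNpc and 0 in VTA by edgeR (0 in VTA at an unadjusted p under 0.05 and by DESeq2), with a median log2 fold change of 0.49, where 17.8% of all tested genes were higher in SNpc. These are short genes, with a median exon union of 1357 bases, and with the length and GC trend removed 7 were called and the median was 0.27. With that trend removed, 15.4% of all genes tested then were called higher in SNpc and 16.8% in VTA. Ubb, a polyubiquitin gene, was 1029 ± 114 CPM in SNpc against 682 ± 87.1 in VTA (SD, n = 5 each), a log2 fold change of 0.59. Of Ubb, 52.4% of the 100-base words also occur in Gm1821, so its count is uncertain. Of 9 E1 enzymes, 6 were higher in SNpc and 0 were in VTA (0 at an unadjusted p under 0.05 and by DESeq2), with a median of 0.40. Removing the trend left 3 called and a median of 0.22. The SUMO E1 subunit Sae1 changed by 0.75 ± 0.10 and the main ubiquitin E1 Uba1 by 0.41 ± 0.09 (SE, edgeR adjusted p = 2.49e-05 and 0.00141). Of 8 E2-fold genes outside the name rule, SNpc was higher in 4 and VTA in 1, at a median of 0.43 that was 0.14 with the trend removed (3 and 1 called). Ufc1, the enzyme of UFM1, rose in SNpc by 0.74, and the giant enzyme Birc6 was higher in VTA, at 134.6 ± 15.2 CPM in SNpc against 268 ± 56.7 in VTA (SD, n = 5 each).

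Of 44 RING, U-box and RBR ligases, 7 (15.9%) were called toward SNpc and 11 (25%) toward VTA, near the 17.8% and 20.4% of all tested genes, at a median of 0.04. With the length and GC trend removed the order turned, to 13 toward SNpc and 8 toward VTA (11 and 9 with the scale refitted). Of all genes tested then, 15.4% and 16.8% were called (15% and 17.4% with the scale refitted). Huwe1, a ligase of the HECT kind that was held in this list, and Mycbp2, with exon unions of 14579 and 15233 bases, changed by -1.20 and -1.17 (edgeR adjusted p = 3.52e-07 and 2.17e-06). Of 16 HECT ligases, 9 (56.2%) were higher in VTA and 0 in SNpc by edgeR (1 at an unadjusted p under 0.05, 0 by DESeq2), with a median of -0.42. Smurf2 was 47.4 ± 6.37 CPM in SNpc against 134.0 ± 24.6 in VTA (SD, n = 5 each) and Herc2 changed by -1.02, while Nedd4, the most abundant of them, was not called (-0.03). After removal of the length and GC trend SNpc was higher in 4 of the 16 HECT genes and VTA in 5, and their median was -0.04. The shares of all genes tested then were 15.4% and 16.8%. The median exon union of the HECT genes was 6344.5 bases, against 3265 bases for the tested E2 genes. Of 22 cullin and anaphase-promoting complex genes 10 (45.5%) were higher in SNpc, among them Skp1a (0.86) and Anapc5 (0.55), and 2 (9.09%) in VTA, led by Cdc26 (-0.75). The list of 30 deubiquitinases also held proteases of SUMO and NEDD8, some of them among the calls in both directions. Of the 30, 7 (23.3%) were higher in SNpc, near the 17.8% of all tested genes, and 2 (6.67%) in VTA. The list median was 0.08, and 0.16 with the trend removed. Uchl1, which frees ubiquitin in neurons, was the most abundant at 1182 ± 124 CPM in SNpc against 722 ± 92.2 in VTA (SD, n = 5 each), and Usp34 went the other way by -0.84. Of the 100-base words of Cdc26, Uchl1 and Usp34, 12.1%, 12.3% and 16% also occur in other genes.

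**Figure D4:**
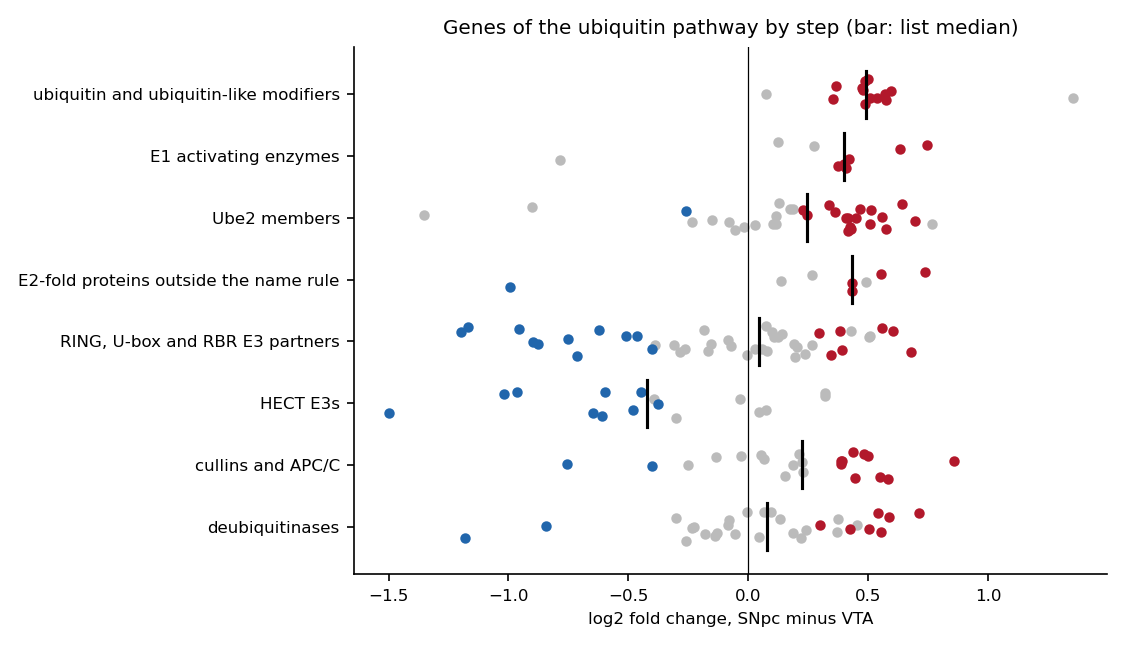
Log2 fold change (SNpc minus VTA) of tested genes of the ubiquitin pathway, one row per gene list, with vertical jitter. Red points were called higher in SNpc, blue points higher in VTA and grey points not called; the black bar is the list median, 0.25 for the Ube2 members and -0.42 for the HECT ligases.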

How the data were processed

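RNA-seq counts of 10 distinct libraries were analysed, 5 per region, from 12 columns. The authors deposited raw counts per gene, with no normalization. Reads were aligned with TopHat2 2.0.8 to mm10, per the submitters' processing notes. The sources used here do not give the counter, annotation or strand setting. The cDNA kit was NuGEN Ovation, per the labels' protocols, a kit that does not mark strand. No column lacked a sample (0).

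Genes were filtered by filterByExpr (minimum count 10, total 15), scaled by TMM and tested with edgeR 4.0.16 in R 4.3.3 (robust quasi-likelihood, region as the only factor). CPM values are TMM-scaled, and the common biological coefficient of variation was 39.6%. The code was tested on simulated data. Ratios used log2(CPM + 2). Lengths, exon overlaps and 100-base words came from GENCODE M21, which held all 35 members; promoters came from RefSeq (GRCm38.p6). Alternatives used limma 3.58.1 and DESeq2 1.42.0.

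The members and lists were chosen with earlier results of these data known. All members may be named; every library is given for called members with the 10 smallest p, the 5 most abundant per length and any called higher in VTA. Of each other list, at most 2 genes by p and 1 by abundance are named; Cdc34, in a tested pair, and genes that share sequence with a member were named beside them. Values of some genes are not reported here.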

Additional observations from a re-analysis of the deposited data

Results flagged for a closer look

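In 4 of 66 sets of 5 libraries (33 tested members in 2 regions), 1 library stood apart from the rest by more than the 95% limit for a gap of this kind, a number that chance alone can give, since about 1 set in 20 is expected to. Ube2h was 197.4 CPM in SNpc library 3, below the 221 to 222 CPM of the other SNpc libraries. Ube2l3 was 172 CPM in VTA library 2, against 204 to 217 in the other VTA libraries. Ube2o was 75.1 CPM in SNpc library 6, against 51.4 to 57.9 in the others. Ube2t, near the floor throughout, was 1.04 CPM in VTA library 2, against 0.115 to 0.381 in the others.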

How the results depend on the processing

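The count of members higher in SNpc was 13 to 18 without any one library, 15 to 18 with library totals, RLE factors, DESeq2, limma-voom, no filter or the 12 deposited columns, and 13 in both length and GC versions. It was 8 with the marker covariate, 10 with the replicate block and 0 against a minimum of 1.5-fold. Of all tested genes, 17.8% were higher in SNpc in the main fit, 8.98% with the covariate, 11.4% with the block and 0.599% at that minimum. That share ran from 14.5% to 20.9% without any one library and from 13.7% to 21.9% in the remaining settings. The block used the 4 numbers that both regions hold; same-numbered libraries correlated by -0.14 to 0.0279, so no pairing was taken from the numbers. Both rest on an arbitrary choice, since the identical columns could carry the number 5 in place of 4 in SNpc and 3 in place of 2 in VTA. Without the block the same 8 libraries gave 12 (14.3% of all tested genes). The count higher in VTA was 0 or 1 without any one library, 0 with DESeq2, RLE factors, the covariate, the block, those 8 libraries unblocked and the 1.5-fold minimum, and 3 in both length and GC versions; without the filter it was 1, Ube2u in place of Ube2w. The share of all tested genes higher in VTA was 17.7% to 20.1% without any one library and 7.31% at the 1.5-fold minimum. In the other settings named for VTA it was 14% to 21.6%. The cause of the changes in these counts was not tested. The members' median log2 fold change stayed at 0.18 to 0.31. Removing the filter moved the median of all genes from -0.04 to -0.14. No pair ratio was called except 2 with the 12 columns (Ube2a/Ube2b and Ube2j1/Ube2j2), where identical columns count as replicates. That is no sign of stability: with the block no ratio could have passed, and without one library a pair could not pass on its own.

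Of 704 member values under alternatives, 580 kept direction and call, 81 lost a call, 9 gained one and 34 changed sign, 2 of these in a called gene. With the length and GC trend removed, scale kept and refitted in turn, the log2 fold changes that turned were those of Ube2d1 (-0.30 and -0.31), Ube2e1 (-0.11 and -0.12), Ube2f (0.10 and 0.083), Ube2g2 (-0.075 and -0.089) and Ube2t (-0.36 and -0.38), and with the scale kept the ratio differences of Ube2e2/Ube2e3 (-0.035), Ube2r2/Cdc34 (0.13) and Ube2v1/Ube2v2 (-0.16). The covariate turned Ube2e3 (0.19) and Ube2q1 (-0.018). DESeq2 and RLE factors turned Ube2e2 (0.013 in both), library totals Ube2r2 (-0.022) and limma-voom Ube2t (-0.35). The 12 columns turned Ube2e3 (0.029), Ube2r2 (-0.0052), Ube2t (-0.25) and Ube2e2/Ube2e3 (-0.021). Ube2t was -1.17 with the replicate block and -0.92 in its 8 libraries without it. Without one library the values that turned spanned -0.080 to 0.066 in Ube2e2, -0.21 to 0.046 in Ube2e3, -0.017 to 0.091 in Ube2r2, -0.68 to 0.80 in Ube2t, -0.088 to 0.087 in Ube2d2/Ube2d3, -0.090 to 0.25 in Ube2e2/Ube2e3, -0.065 to 0.0099 in Ube2k/Ube2h and -0.018 to 0.19 in Ube2v1/Ube2v2. Counts were low in Ube2c, Ube2l6, Ube2t and Ube2u, and the 3 that were tested had standard errors of 0.72 to 0.96. How far depth or spread between libraries sets these errors was not tested.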
